A study of Rattus norvegicus with 24 samples.

Results

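The neurofilament and ganglion cell axon genes are 10 genes whose products build, label or maintain the axons of retinal ganglion cells, the neurons that carry the output of the retina to the brain. They were Nefl, Nefm, Nefh, Thy1, Sncg, Gap43, Stmn2, Mapt, Map2 and Uchl1, and every spot whose RefSeq accession mapped to one of these symbols was taken, whatever its values. Of the 10 genes, 8 had at least 1 spot (10 spots in all, among 33849 spots for rat transcripts and 4013 genes named through RefSeq). Nefh and Map2 had none named this way and are not analysed here. The study asked how gene expression in the retina changes with the duration of diabetes. The retinas came from male Sprague Dawley rats, and the RNA was read in 1 color on 24 CodeLink arrays of the rat genome. Each array was taken as a separate rat. The paper lists fewer 1 month control rats than the 6 arrays of that group, and a figure legend gives fewer than 6 animals per group. This difference could not be resolved here. The 4 groups of 6 arrays were rats injected with vehicle (control) and rats injected with streptozotocin (STZ), a toxin of the insulin-producing cells of the pancreas, each killed 1 month or 3 months after the injection. All rats were young males injected soon after arrival, and the age at death differed between the 1 month and 3 month groups. Whole retinas were used, so ganglion cells contributed only part of the RNA, and fewer ganglion cells cannot be told apart from less RNA per ganglion cell.

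Neurofilaments are the intermediate filaments of large axons, assembled from light (Nefl), medium (Nefm) and heavy (Nefh) subunits, and their number sets axon caliber. Ganglion cells have long axons and are the main source of neurofilaments in the retina, and Thy1 and gamma-synuclein (Sncg) are widely used to label these cells. Gap43 and Stmn2 serve the growth cone, the tip of a growing or regrowing axon, tau (Mapt) binds and stabilizes axonal microtubules, Map2 does so in dendrites, and Uchl1 is an abundant neuronal enzyme that recycles ubiquitin.

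The spots themselves carry no printed sequence here, and the RefSeq table of gene starts (assembly GRCr8) held 2 of the 7 genes that could be tested. These were Uchl1, the only tested member with a lower mean intensity in the STZ arrays at 3 months, and Sncg, which had a higher mean intensity but a lower within-array rank. The 250 bases before each RefSeq start are shown to place both genes in the genome. Both windows lie inside the annotated span of their gene, chr14:41838859-41849743 for Uchl1 and chr16:9706765-9712072 for Sncg. The starts used, from which the distances below are counted, are therefore not the outermost ends of the genes. Capitals mark matches on either strand to 4 short promoter motifs, the CCAAT box (CCAAT), the TATA box (TATAAA), the GC box (GGGCGG) and the E-box (CACGTG), none of which overlapped another.
Uchl1, chr14:41849418-41849667, minus strand: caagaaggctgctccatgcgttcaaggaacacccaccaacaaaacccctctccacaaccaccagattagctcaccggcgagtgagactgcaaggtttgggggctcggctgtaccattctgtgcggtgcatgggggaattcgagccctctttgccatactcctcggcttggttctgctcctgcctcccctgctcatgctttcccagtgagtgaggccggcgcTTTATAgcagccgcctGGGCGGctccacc
Sncg, chr16:9711337-9711586, minus strand: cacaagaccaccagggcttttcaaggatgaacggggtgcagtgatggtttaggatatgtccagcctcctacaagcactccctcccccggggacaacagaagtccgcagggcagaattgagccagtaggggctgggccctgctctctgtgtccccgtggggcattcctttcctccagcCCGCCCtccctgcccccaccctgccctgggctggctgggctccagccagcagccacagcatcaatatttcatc
The Uchl1 window held a TATA box match on the reverse strand 24 to 29 bases before the start and a GC box match 8 to 13 bases before it. The Sncg window held a GC box match on the reverse strand 68 to 73 bases before the start. Among windows of the same length for all 33469 entries of the table, 12.9% held TATAAA, 30.5% held GGGCGG, 34.0% held CCAAT and 5.59% held CACGTG on either strand. G and C made up 59.6% of the Uchl1 window and 61.6% of the Sncg window, against a median of 51.2% over all windows.

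Each value below is the background-subtracted intensity of a spot divided by the median of all rat spots on its array (scaled intensity), so that 1 is the middle of an array. Spots with a median over all arrays above a scaled intensity of 0.554 were tested, and a spot was called if limma gave a Benjamini-Hochberg adjusted p under 0.05 over all 22025 tested spots together with at least a 1.2-fold difference. The percentile is the rank of a spot among all rat spots of its array, from 0 to 100, and does not depend on how an array is scaled. Of the 10 spots, 9 were tested, for 7 genes. Thy1 was not, as its only spot lay below the limit on every array. The arrays themselves differed. The interquartile range of log2 intensity was 3.36 to 3.67 at 1 month, 1.48 to 2.23 in the 3 month controls and 2.07 to 2.70 in the 3 month STZ arrays. At 3 months the median log2 difference between STZ and control over all tested spots was 0.44, which became 0.16 once the distributions of all arrays were made equal (quantile normalization). Replicate 2 of the 3 month controls stood apart, with a median correlation of 0.802 with its own group, against 0.947 to 0.966 for the other 3 month controls.

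At 3 months 8 of the 9 tested spots had a higher mean scaled intensity in diabetic rats and Uchl1 had a lower one. With limma 4 of 9 were called higher and 0 lower, or 44.4% of the spots, beside 50.5% of all tested spots called higher and 3.55% called lower (54.1% called in either direction). The 4 were Nefm, Mapt and 1 of the 2 spots for each of Gap43 and Stmn2, and after quantile normalization 0 of 9 were called, beside 31.5% of all tested spots. By within-array percentile limma called 0 of 9 at 3 months, beside 24.1% of all tested spots called higher and 6.54% called lower (30.7% in either direction). At an unadjusted p under 0.05 there was 1 of 9 by percentile, beside 9028 of 22025 tested spots. The median difference over the 9 spots was 0.45 on the log2 scale and -0.831 percentile points, beside 0.44 and 2.05 points over all tested spots. Without replicate 2 of the 3 month controls the percentile medians were -0.804 points for members and 0.565 for all tested spots. Ranked among tested spots only, they were -1.27 and 0.334 points. The gap between members and all tested spots was not tested. No member separated the groups fully at 3 months, whereas 10.2% of tested spots did so by scaled intensity and 8.44% by percentile. At 1 month 0 of 9 were called on either scale with limma, beside 0.00908% of all tested spots by intensity and 0.0% by percentile. At an unadjusted p under 0.05 there were 0 of 9, beside 927 of 22025 tested spots by intensity and 651 by percentile.

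**Figure D1:**
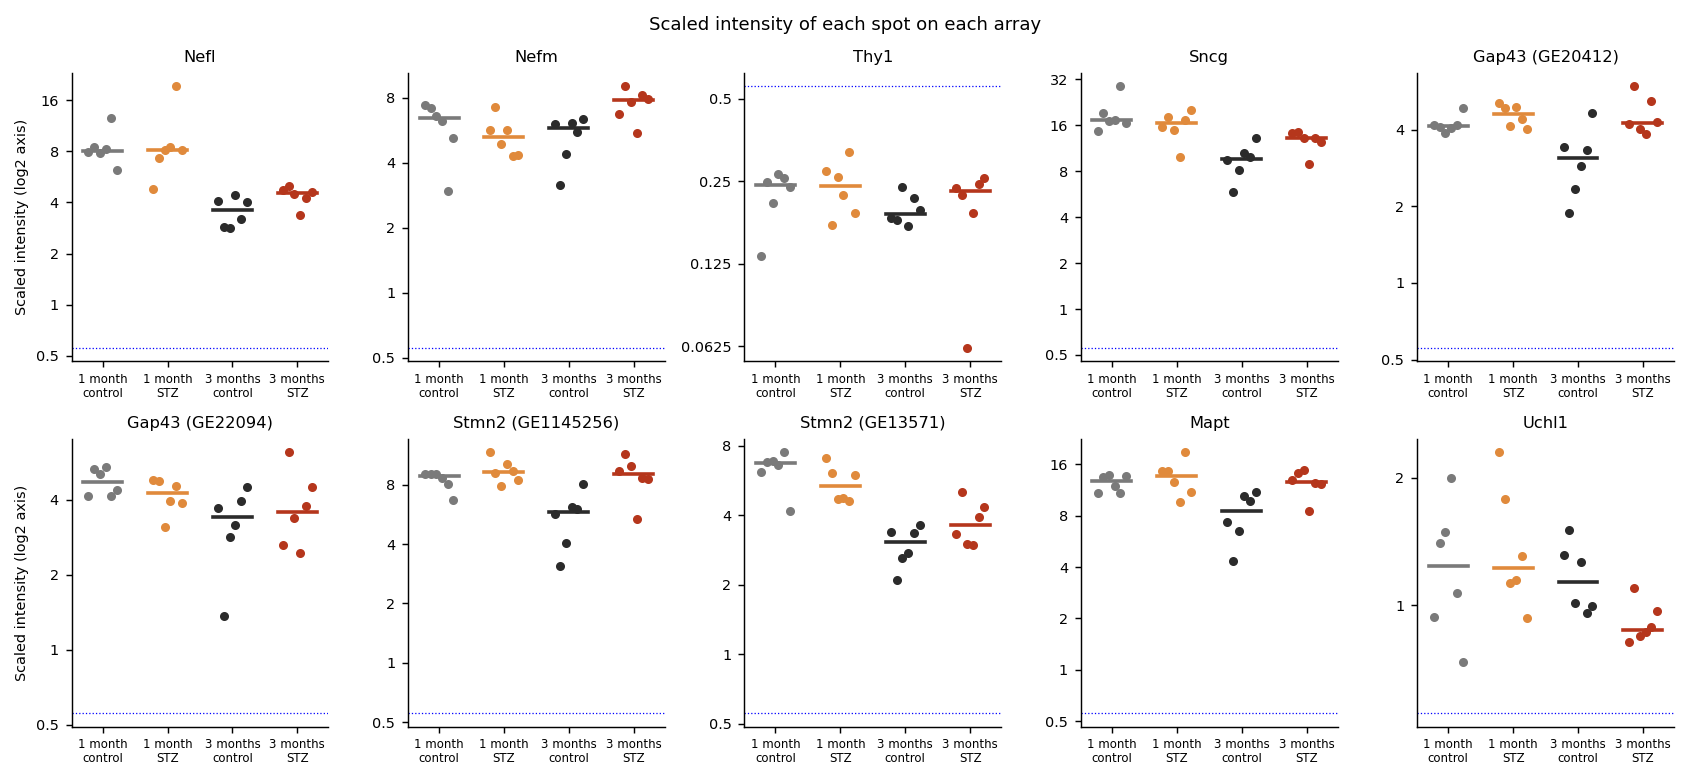
Scaled intensity of each of the 10 spots (1 panel each, log2 axis) on each of the 24 arrays, with points for arrays in replicate order, bars at group medians and a dotted line at the testing limit of 0.554. Thy1 lies below the line on all arrays. The 3 month controls are the lowest of the 4 groups by median for every tested spot but Nefm and Uchl1.

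The light neurofilament subunit did not pass the test at either time. At 1 month the scaled intensity of Nefl was 6.18, 8.09 and 12.6 (lowest, median and highest) in controls and 4.79, 8.15 and 19.3 in STZ rats. At 3 months it was 2.83, 3.60 and 4.44 in controls and 3.38, 4.56 and 5.04 in STZ rats. The 1 month STZ arrays enclosed all 1 month controls, and at 3 months 4 of 6 STZ arrays lay above every control. The log2 difference at 3 months was 0.32 (95% interval -0.13 to 0.77, adjusted p = 0.213), a 1.25-fold ratio below the shift of the whole array. Its percentile pointed the other way. Nefl lay at the 81.9th to 87.7th percentile (median 85.3) of 3 month controls and at the 80.8th to 84.6th (median 82.8) of 3 month STZ arrays. The difference of -2.17 points (95% interval -6.02 to 1.67, limma adjusted p = 0.403) did not pass with the variance pooled over the 4 groups. The standard deviation of the percentile was 2.83 in controls and 5.11 in STZ rats at 1 month, against 2.30 and 1.34 at 3 months. The exact permutation test at 3 months, two-sided and unadjusted, gave p = 0.0758.

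The medium subunit was called higher by intensity at 3 months and had the same rank. Nefm had scaled intensities of 2.96, 6.43 and 7.42 in 1 month controls and of 4.29, 5.28 and 7.21 in 1 month STZ rats. In 3 month controls they were 3.17, 5.80 and 6.35, and in 3 month STZ rats 5.49, 7.77 and 9.03. At 3 months 5 of 6 STZ arrays lay above every control and the sixth was within the control range. The log2 difference was 0.54 (95% interval 0.12 to 0.95, 1.45-fold, limma adjusted p = 0.0299). It passed the test in 19 of 24 fits that each left out 1 array. It was no longer called without replicate 2 (0.40, adjusted p = 0.0994) or 3 (0.49, adjusted p = 0.0654) of the 3 month controls, or without replicate 2 (0.48, adjusted p = 0.0667), 5 (0.50, adjusted p = 0.0602) or 6 (0.52, adjusted p = 0.0532) of the 3 month STZ rats. After quantile normalization the difference was -0.0025 (95% interval -0.35 to 0.34). The percentile was 88.0 to 92.7 (median 90.9) in controls and 88.8 to 92.5 (median 90.6) in STZ rats at 3 months, and the STZ values lay within the control range. The percentile difference was 0.018 points (95% interval -3.91 to 3.95, adjusted p = 0.996).

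Of the ganglion cell markers, Thy1 gave no usable signal and Sncg was among the brightest spots. Thy1, a surface glycoprotein of neurons that also occurs on other cells, had scaled intensities of 0.134 to 0.319 at 1 month and of 0.0615 to 0.257 at 3 months, all under the limit of 0.554. It lay at the 14.9th to 26.7th percentile of the 1 month arrays and at the 0.165th to 4.44th of the 3 month arrays. The level of the spot overlapped between times while its rank did not. Without the testing limit its 3 month difference was -0.092 on the log2 scale and 0.900 percentile points (limma adjusted p = 0.777 and 0.703). No conclusion about STZ and control is drawn from a spot this dim.

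Sncg had scaled intensities of 14.8, 17.3 and 28.9 in 1 month controls, and of 9.91, 16.6 and 20.1 in 1 month STZ rats. In 3 month controls they were 5.88, 9.70 and 13.2, and in 3 month STZ rats 8.94, 13.2 and 14.5. The groups overlapped at both times, and at 3 months 3 of 6 STZ arrays lay above every control. The log2 difference at 3 months was 0.45 (95% interval 0.05 to 0.84), with a limma adjusted p of 0.0503 just past the threshold. It was called without replicate 5 of the 1 month controls, replicate 4 of either STZ group, or replicate 4 or 6 of the 3 month controls, with adjusted p between 0.0152 and 0.0460. By rank Sncg was at the 95.9th to 96.8th percentile (median 96.4) of 3 month controls and at the 94.8th to 96.5th (median 95.5) of 3 month STZ arrays, with 5 of 6 STZ arrays below every control. The mean percentile difference was -0.831 points (95% interval -2.62 to 0.957, limma adjusted p = 0.504). The exact permutation test of that difference, two-sided and unadjusted, gave p = 0.0260, where the pooled variance of the 4 groups was not used. Intensity and rank of Sncg thus differed in direction, and quantile normalization gave -0.17 on the log2 scale.

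The growth cone genes each had 2 spots, of which 1 was called higher. Gap43 encodes a membrane protein of the growth cone that neurons raise again when their axons regrow. Its first spot (GE20412) had scaled intensities of 3.89, 4.14 and 4.86 in 1 month controls and of 4.04, 4.63 and 5.12 in 1 month STZ rats. The 3 month values were 1.89, 3.10 and 4.67 in controls and 3.87, 4.26 and 5.93 in STZ rats. Only 2 STZ arrays lay above every 3 month control, since the highest control (replicate 6) reached the middle of the STZ values. The log2 difference at 3 months was 0.61 (95% interval 0.28 to 0.95, 1.53-fold, adjusted p = 0.00427). After quantile normalization it was 0.16 (adjusted p = 0.387), and the percentile difference was 2.04 points (95% interval -1.12 to 5.20, adjusted p = 0.334). The second spot (GE22094) did not pass. Its 3 month values were 1.37, 3.43 and 4.51 in controls and 2.45, 3.58 and 6.25 in STZ rats, and the groups overlapped nearly in full. The log2 difference was 0.26 (95% interval -0.21 to 0.72, adjusted p = 0.340), which quantile normalization turned to -0.15. Without replicate 2 of the 3 month controls, its lowest value, the difference was 0.02.

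Stmn2 encodes stathmin-2, a microtubule regulator of growing axons. Its first spot (GE1145256) had scaled intensities of 6.67, 8.82 and 9.05 in 1 month controls and of 7.89, 9.28 and 11.8 in 1 month STZ rats. The 3 month values were 3.11, 5.84 and 8.08 in controls and 5.38, 9.02 and 11.5 in STZ rats. At 3 months 5 of 6 STZ arrays lay above every control. The log2 difference of 0.72 (95% interval 0.33 to 1.11, 1.65-fold, adjusted p = 0.00392) was the highest among the members, and 81.5% of all tested spots had a smaller one. After quantile normalization it was 0.17 (adjusted p = 0.311). By percentile the spot gained 1.33 points (95% interval -0.731 to 3.39, adjusted p = 0.334), within the spread between rats. The second spot (GE13571) ranged from 2.09 to 3.62 (median 3.06) in 3 month controls and from 2.97 to 5.05 (median 3.63) in 3 month STZ rats. It overlapped between groups, with a log2 difference of 0.34 (95% interval -0.01 to 0.69, adjusted p = 0.0922) that became -0.12 after quantile normalization. It was called without replicate 6 of the 3 month controls (0.40, adjusted p = 0.0483). For both genes the 2 spots had overlapping intervals, and the difference between spots was not tested.

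Tau gave much the same picture. Mapt had scaled intensities of 10.8, 12.7 and 13.9 in 1 month controls and of 9.65, 13.6 and 19.0 in 1 month STZ rats. In 3 month controls they were 4.32, 8.51 and 11.02, and in 3 month STZ rats 8.51, 12.7 and 14.9. At 3 months 5 of 6 STZ arrays lay above every control. The log2 difference was 0.66 (95% interval 0.26 to 1.06, 1.58-fold, adjusted p = 0.00811), and 0.08 after quantile normalization (adjusted p = 0.735). The percentile was 93.1 to 96.2 (median 95.02) in 3 month controls and 94.5 to 96.6 (median 95.02) in 3 month STZ rats. That difference of 0.42 points had a 95% interval of -1.43 to 2.26.

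Uchl1 was the exception in direction. Its spot lay near the middle of the arrays, with scaled intensities of 0.734, 1.24 and 2.00 in 1 month controls and of 0.934, 1.23 and 2.31 in 1 month STZ rats. At 3 months they were 0.958, 1.14 and 1.504 in controls and 0.818, 0.875 and 1.10 in STZ rats. Here 4 of 6 STZ arrays lay below every control, and the other STZ arrays were inside the control range. The log2 difference of -0.35 (95% interval -0.79 to 0.08, limma adjusted p = 0.157) did not pass, and only 5.60% of all tested spots had a smaller one. Its exact permutation test, two-sided and unadjusted, gave p = 0.0216. The percentile was 48.0 to 66.3 (median 55.2) in controls and 41.8 to 52.6 (median 45.4) in STZ rats. Its difference of -9.72 points (95% interval -17.6 to -1.79, adjusted p = 0.0580) missed the threshold, and the exact permutation test, two-sided and unadjusted, gave p = 0.0216. It passed in 6 of the 24 fits that each left out 1 array, with adjusted p from 0.0326 to 0.0471. These left out replicate 4 or 6 of the 1 month controls, replicate 1 of the 1 month STZ rats, replicate 5 or 6 of the 3 month controls, or replicate 2 of the 3 month STZ rats. Leaving out a 1 month array kept the difference at -9.72 points. The difference was weakest without replicate 2 of the 3 month controls, at -7.68 points (limma adjusted p = 0.148). At 1 month the percentile difference of Uchl1 was 2.63 points (95% interval -5.30 to 10.6).

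**Figure D2:**
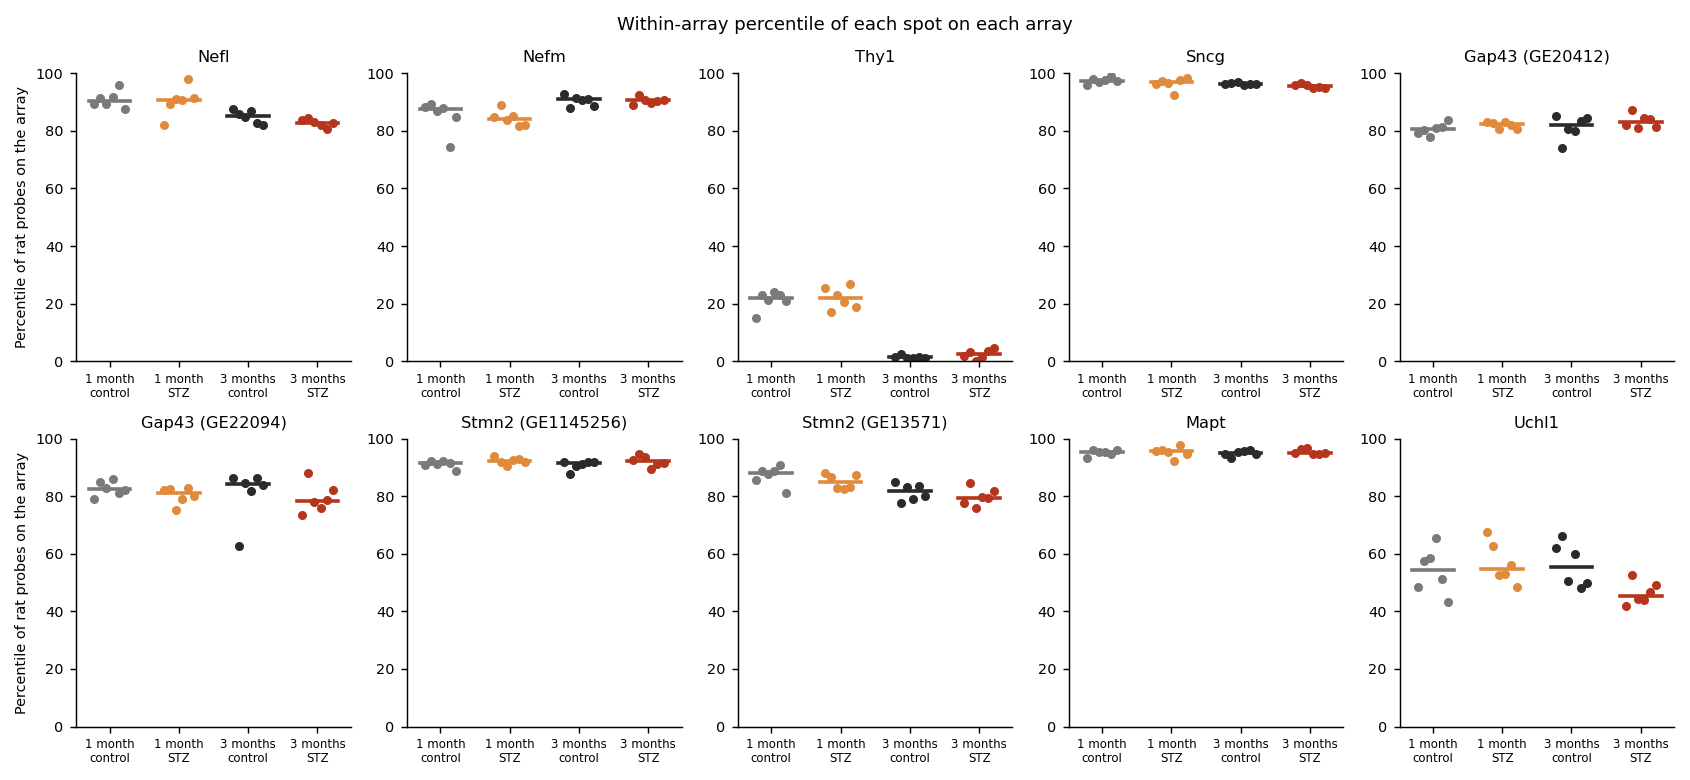
Within-array percentile (0 to 100) of each spot on each of the 24 arrays, with points for arrays and bars at group medians. The spots other than Thy1 and Uchl1 lie at 62.8 or above on all arrays, Thy1 lies at 14.9 to 26.7 at 1 month and at 4.44 or below at 3 months, and Uchl1 lies at 41.8 to 52.6 in the 3 month STZ arrays against 48.0 to 66.3 in the 3 month controls.

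Within each 3 month group single arrays held most of the extreme values. Replicate 6 of the 3 month controls had the widest spread of its group (interquartile range 2.23) and was the highest control for 7 of the 9 tested spots. Replicate 4 of the 3 month STZ rats had the narrowest spread of its group (2.07) and was the lowest STZ array for 8 of 9. Replicate 2 of the 3 month controls, with a spread of 1.80, was the lowest control for 7 of 9 and the highest for Uchl1. Replicate 2 of the 3 month STZ rats, with a spread of 2.53, was the highest STZ array for 8 of 9. With the spread of the array as a covariate 0 of 9 spots were called at 3 months, as were 0 of all 22025 tested spots. With its brightness as a covariate 1 was called, the first Stmn2 spot, beside 18.4% of all tested spots. Every 3 month STZ array but replicate 4 had a wider spread than all 3 month controls.

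**Figure D3:**
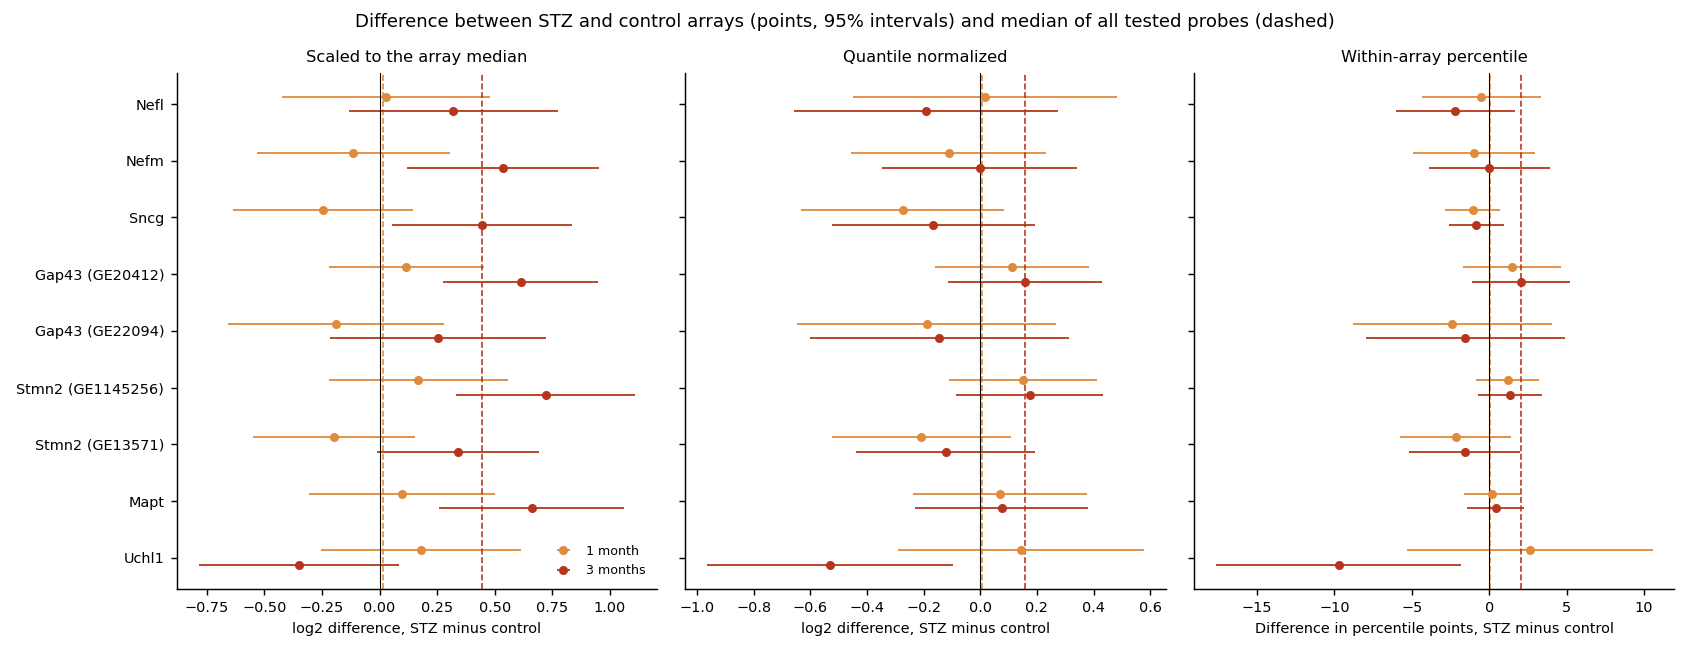
Difference between STZ and control means for the 9 tested spots at 1 month (orange) and 3 months (red) with 95% limma intervals, from median-scaled log2 intensity (left), quantile-normalized log2 intensity (middle) and within-array percentile (right). Dashed lines mark the median of all tested spots, which is 0.44, 0.16 and 2.05 at 3 months, and the members lie around the first and mostly below the other two.

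At 1 month the log2 differences of the 9 spots ran from -0.24 (Sncg) to 0.18 (Uchl1), with 5 above 0 and 4 below. The percentile differences ran from -2.38 points (Gap43, GE22094) to 2.63 points (Uchl1). The change from 1 to 3 months was tested as the 3 month difference minus the 1 month difference. It was called for 0 of 9 spots with limma, beside 15.5% of all tested spots. At an unadjusted p under 0.05 there were 5 of 9, beside 8954 of 22025 tested spots. The largest was 0.69 for Sncg (95% interval 0.14 to 1.24, adjusted p = 0.0693), followed by 0.65 for Nefm (95% interval 0.06 to 1.24, adjusted p = 0.0967), and Uchl1 had -0.53 (95% interval -1.15 to 0.08, adjusted p = 0.172). Without replicate 6 of the 3 month controls 4 spots were called (Sncg, Gap43 GE20412 and both Stmn2 spots), or 44.4%, beside 41.9% of all tested spots. Without replicate 4 of the 3 month STZ rats 2 were called (Sncg and Stmn2 GE1145256), beside 24.9%, and without replicate 5 of the 1 month controls 1 (Nefm), beside 8.49%.

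The control rats of the 2 time points can be set side by side without a test, since age and array spread differ between them together. All 9 tested spots had a lower median scaled intensity at 3 months than at 1 month, and the control groups did not overlap for Nefl, Sncg and the second Stmn2 spot. Nefl had medians of 8.09 and 3.60, the second Stmn2 spot of 6.74 and 3.06, and Sncg of 17.3 and 9.70. By percentile 4 spots had a lower median at 3 months and 5 a higher one, and the control groups overlapped for all 9. The neurofilament subunits ran opposite ways, from 90.4 to 85.3 for Nefl and from 87.5 to 90.9 for Nefm.

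Rats of one group also differed from each other. The 9 spots form 36 pairs, compared over 24 arrays by the residuals of quantile-normalized log2 intensity from the 4 group means. Pearson's r was above 0 for 31 pairs and below 0 for 5, with a median of 0.21, and no such value was computed for other spots. The second Gap43 spot had r = 0.58 with the second Stmn2 spot (Spearman's rho = 0.61) and r = 0.69 with the first (rho = 0.53), the only pairs that passed after adjustment over the 36 (permutation test within groups, adjusted p = 0.0308 for each r). Neither passed by rank (permutation test, adjusted p = 0.0565 and 0.133 for rho). Without the 2 arrays farthest from the median of the Gap43 spot, r was 0.49 for each pair. The r between the 2 Gap43 spots was 0.73 (rho 0.47, permutation test, adjusted p = 0.0515 and 0.175) and that between the 2 Stmn2 spots was 0.51 (rho 0.49, permutation test, adjusted p = 0.0844 and 0.138). Nefl and Nefm, whose products assemble together, did not pass as a pair, and their r differed in sign between the times. Their r was -0.40 over all arrays (rho -0.20, permutation test, adjusted p = 0.323 and 0.548), -0.52 within the 1 month arrays and 0.42 within the 3 month arrays. Over 24 arrays, the 5 other genes most like the mean of Nefl and Nefm among 3133 spots were Nrdc (r = 0.71), Acat1 (0.71), Slc20a1 (0.69), Ywhaq (0.69) and Zfp180 (0.68). They were picked as the highest and are given without a test, and the r of Nrdc was 0.03 with Nefl and 0.75 with Nefm.

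**Figure D4:**
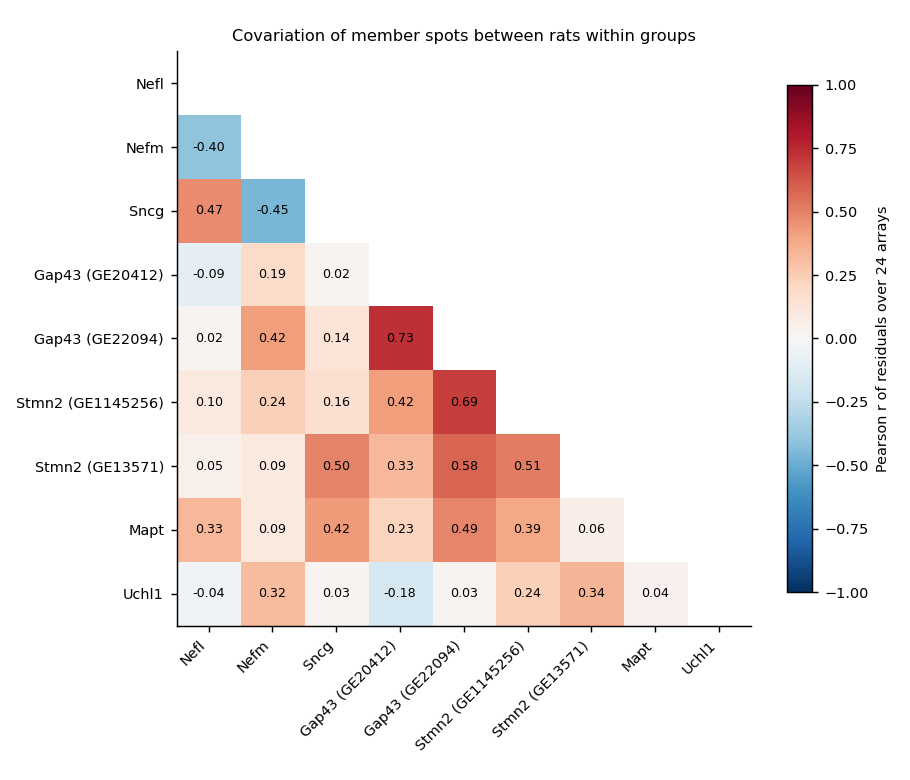
Pearson's r between the 9 tested spots over 24 arrays, from residuals of quantile-normalized log2 intensity after the 4 group means were taken out. The block of Gap43 and Stmn2 spots runs from 0.33 to 0.73, while Nefl with Nefm is at -0.40 and Sncg with Nefm at -0.45.

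Other genes of the axon were read from 7 lists, with 1 spot per gene and counts at 3 months. Counted the same way, 56.0% of all 2812 tested genes were called higher and 3.45% lower by intensity, and 26.4% higher and 5.76% lower by percentile, so that list counts near these shares are no result about a list. Without replicate 2 of the 3 month controls 44.8% were called higher by intensity. Of 30 further cytoskeleton genes 10 were tested, of which 6 passed as higher and 0 as lower by intensity, and the median log2 difference was 0.67. By percentile 1 was called, Crmp1, a collapsin response mediator of axon guidance (log2 difference 1.06, 11.1 points, adjusted p = 0.0431). The spectrin Sptan1 had 0.94, and the lowest were Ina, a further neurofilament subunit (0.21, adjusted p = 0.403), and Dcx (0.07, adjusted p = 0.744). Of 24 further ganglion cell markers 14 had a spot and 12 were tested, with 7 called higher and 0 lower by intensity (5 higher without replicate 2 of the 3 month controls) and a median of 0.49. Only Chrna6, a nicotinic receptor subunit of ganglion cells that project to the midbrain, was called by percentile (log2 difference 0.80, 23.6 points, adjusted p = 0.000298). The peptide gene Adcyap1 had 0.77 (adjusted p = 0.00142), and Cartpt (0.16) and Scn2a (0.09) did not pass. The median percentile difference was 0.378 points for the cytoskeleton list and -0.101 points for the marker list. Both lay under the 2.05 points of all tested spots, a reference that was 0.565 points without replicate 2 of the 3 month controls.

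The motors, kinases and ubiquitin genes that act on these proteins are read against the same shares of all genes. By intensity 5 of 9 tested axonal transport genes passed as higher and 0 as lower (3 higher without replicate 2 of the 3 month controls), with a median of 0.37. The highest were the dynein chains Dync1i1 (0.74) and Dync1li1 (0.68), and the lowest were Dynll2 (0.27) and Dctn4 (0.03). By percentile Dync1li1 (22.04 points, adjusted p = 0.000149) and Kif2c (8.52 points, adjusted p = 0.0495) were called higher. Among 14 kinases and phosphatases of tau and neurofilaments 9 passed as higher and 1 as lower, and the median was 0.63. Mark2, which phosphorylates tau, had 1.16 and 18.3 points (adjusted p = 0.00485), and the phosphatase subunit Ppp1ca had 0.90 and 4.58 points (adjusted p = 0.0239). Mapk3 (10.1 points, adjusted p = 0.00676) was also called higher by percentile. Ppp3cb, a catalytic subunit of calcineurin, was lower on both scales (-1.02, and -26.2 points, adjusted p = 0.000444), and Gsk3a had -0.47 (adjusted p = 0.0597). Of 9 synuclein and ubiquitin system genes 8 were called higher by intensity, with Psma1 (0.83) and Psmc1 (0.77) highest and Ube2n (0.23) and Psmc5 (0.60) lowest, and 0 by percentile with limma (0 after quantile normalization).

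The list of axon injury and regeneration was the longest tested. Of 15 injury and regeneration genes 9 were called higher and 1 lower by intensity, with a median of 0.56 and a median of 5.55 percentile points, beside 2.05 points over all tested spots. By percentile 5 of 15 were called higher, beside 26.4% of all genes, namely Gadd45a, a gene of DNA damage and stress (6.27 points, adjusted p = 0.000104), Jun, a transcription factor of axotomized neurons (10.7 points, adjusted p = 0.0194), Ecel1 (11.5 points), and the cytokines Il6 (25.4 points) and Lif (9.85 points). Beside 5.76% of all genes, 2 of 15 were lower, the BDNF receptor Ntrk2 (-23.3 points, adjusted p = 6.11e-05; log2 difference -0.92) and Ngfr (-9.71 points, adjusted p = 0.0125; log2 difference -0.22, adjusted p = 0.249). Gap43 and Stmn2, themselves genes of axon regrowth, had no called rank difference. Among 11 adhesion and node genes 6 passed as higher and 0 as lower by intensity, and the median was 0.49. By percentile Cntn2 (26.6 points, adjusted p = 3.01e-05) and Cntn1 (8.33 points, adjusted p = 0.0190) were called higher, and the lowest log2 differences were those of Nfasc (0.20) and Ncam1 (0.32). Kif2c, Mapk3, Ecel1, Il6 and Lif were picked for naming after their values were seen, because they complete small counts.

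**Figure D5:**
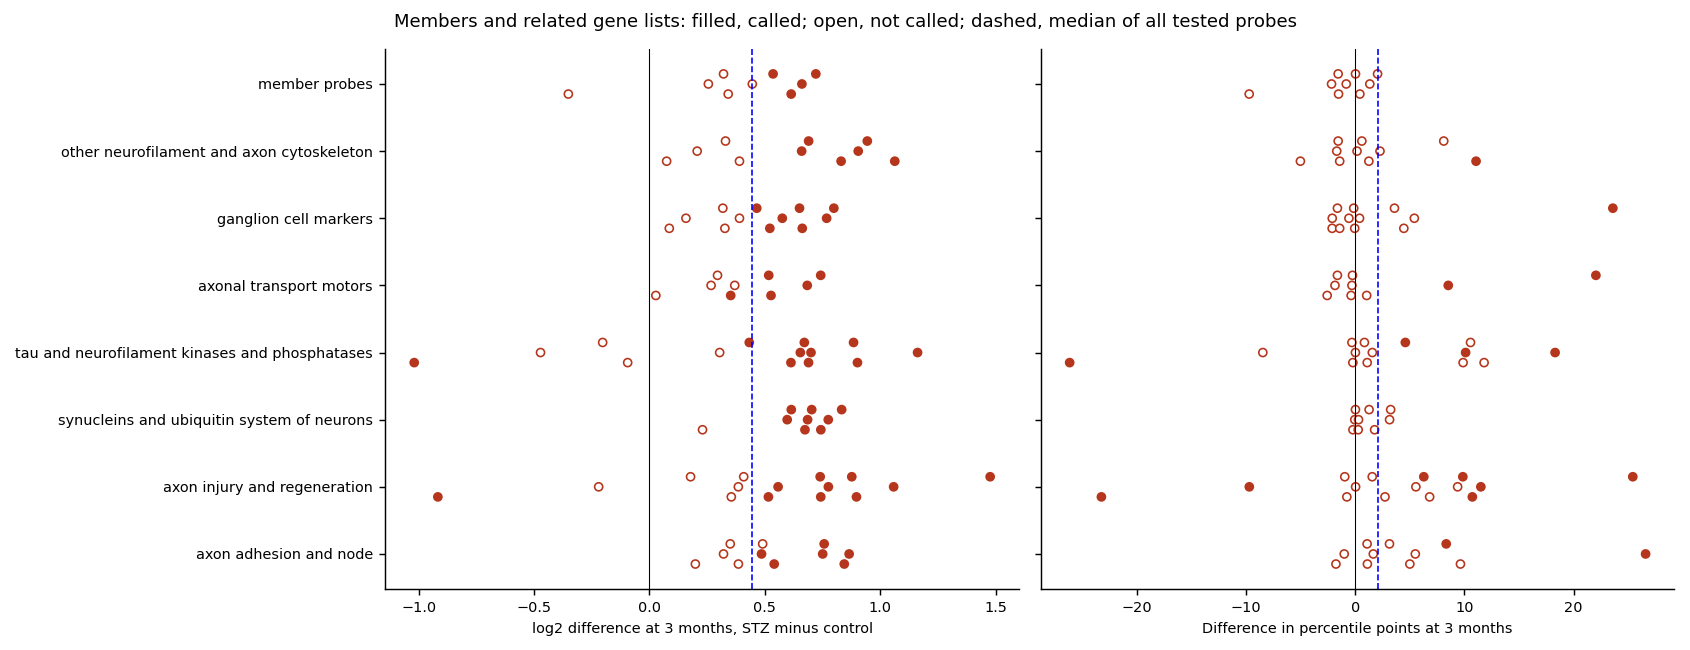
Difference between STZ and control at 3 months for the 9 member spots and for the genes of the 7 lists (1 spot per gene), as log2 intensity (left) and percentile points (right), with filled points called by limma and open points not called. The dashed line is the median of all tested spots (0.44 and 2.05), and the 9 member spots include 4 filled points on the left and none on the right.

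Some markers of other cells also differed at 3 months, and their part in the values above was not tested. By percentile 26.4% of all tested genes were called higher and 5.76% lower. None was called in either direction among 6 Mueller glia, 5 rod, 2 bipolar cell and 2 pigment epithelium markers tested, and of 11 amacrine cell markers 0 were higher and 1 lower. The 1 cone and 1 endothelium marker tested were not called either. By percentile 1 of 2 horizontal cell markers was lower, and 1 of 2 erythrocyte markers was higher. All 3 astrocyte markers were called higher by percentile, and their summed scaled intensity was 3.61 to 4.83 in 3 month controls and 5.44 to 9.82 in 3 month STZ rats. Of 4 tested markers of microglia and leukocytes 3 were called higher by percentile, and the summed level of the 6 with a spot was 6.01 to 9.14 and 9.33 to 13.8, with Cx3cr1 and Ptprc under the limit. Of 4 tested markers of oligodendrocytes, which wrap ganglion cell axons in the optic nerve and are scarce in the retina, 3 were called higher by percentile. The summed level of the 8 with a spot was 8.72 to 12.7 in controls and 10.8 to 11.998 in STZ rats, with Mbp, Mog, Ugt8 and Cldn11 under the limit. The 6 lens markers summed to 79.0 to 168 in controls and 207 to 464 in STZ rats, with 2 of 6 called higher by percentile. The summed level of the 14 ganglion cell markers with a spot was 36.6 to 87.8 in controls and 65.4 to 94.5 in STZ rats, with Chrnb3 and Kcnd2 under the limit.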

How the data were processed

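The authors scanned each array, took spot intensities with the CodeLink software, subtracted the local background and excluded spots outside the manufacturer's specification. The authors deposited these linear intensities and a second column scaled by a constant near the median of the array, which the series-level table repeats. Here the first was divided by the median of the 33849 rat spots of its array, raised to at least 0.01 and put on a log2 scale. A spot was tested if its median over 24 arrays exceeded the 35th percentile of all spots (0.554) and each group had at least 4 values. Symbols came from RefSeq accessions, of which 4675 of 5469 matched. The 4 groups were fitted in 1 model with limma 3.58.1 in R 4.3.3, on log2 intensity and on within-array percentiles, and the fit was tested on simulated data. Exact permutation tests compared single values. The test in the methods, per spot without equal variances, is called the methods' test. Arrays were taken to come from separate rats, and the precision is limited by their number and by signal over background. The members and lists were chosen with earlier results of these data known. All member spots, the 2 highest and 2 lowest genes of the axon gene lists and the 5 genes most like Nefl and Nefm were named, and marker lists are given as sums and counts.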

Additional observations from a re-analysis of the deposited data

Results flagged for a closer look

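Each of the 10 spots was examined in each of the 4 groups on 2 scales, 80 sets of 6 arrays that are not independent, for a single array far from the other 5 by Dixon's criterion. Chance flags about 1 in 20 such sets, and 12 were found. On the log2 scale these were Thy1 in 1 month control replicate 1 (-2.90) and 3 month STZ replicate 3 (-4.02), both below the limit, Sncg (3.16) and Mapt (3.09) in 3 month STZ replicate 4, and Gap43 GE20412 (2.28, the highest) and Stmn2 GE13571 (2.06, the lowest) in 1 month control replicate 6. By percentile they were Nefm in 1 month control replicate 5 (74.3, the others from 84.9), Sncg in 1 month STZ replicate 4 (92.4, the others from 96.3), and Thy1 in 1 month control replicate 1 (14.9). Replicate 2 of the 3 month controls held the remaining ones, with Gap43 GE22094 at 62.8 (the others from 81.6), Stmn2 GE1145256 at 87.6 (the others from 90.4) and Thy1 at 2.61.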

How the results depend on the processing

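At 3 months 4 of 9 spots were called by intensity; 0 were called after quantile normalization (31.5% of all tested spots), with array spread as a covariate (0 of all tested spots) and by the methods' test without (16.9%) or with (8.72%) adjustment, and 1 with array brightness as a covariate (18.4%). By percentile 0 were called, and 1 (Uchl1) was called when ranked among tested spots only (adjusted p = 0.0366), beside 23.7% of all tested spots. The exact permutation test without adjustment gave p under 0.05 for 2 (Uchl1 and Sncg), with no all-spot share to set beside it. For the change from 1 to 3 months 0 were called, but 6 with array weights, beside 46.9% of all tested spots. With each array left out in turn, the calls ran from 3 to 6 by intensity and from 0 to 1 by percentile at 3 months, from 0 to 4 for the change, and stayed at 0 at 1 month on both scales. In the same fits the shares of all tested spots at 3 months ran from 39.7% to 63.8% by intensity and from 26.2% to 37.5% by percentile. For the change they ran from 3.45% to 41.9%. Quantile normalization turned the 3 month difference of Nefl (-0.19), Nefm (-0.0025), Sncg (-0.17), Gap43 GE22094 (-0.15) and Stmn2 GE13571 (-0.12), and the change of Nefl (-0.21). The spread covariate turned the 3 month difference of Nefm (-0.11), Gap43 GE22094 (-0.44), Stmn2 GE1145256 (-0.0038) and Stmn2 GE13571 (-0.21) and their changes (-0.014, -0.27, -0.19 and -0.019). At 1 month Nefl turned with the brightness covariate (-0.067) and Uchl1 with array weights (-0.17), and with single arrays left out Nefl ran from -0.21 to 0.19 and Mapt from -0.0056 to 0.19. The causes were not tested, and none of the values that turned was called before or after, apart from those of Nefm and Stmn2 GE1145256 at 3 months by median scaling.

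The replicate numbers did not pair the rats, since the correlation of same-numbered residuals ran from -0.24 to 0.25. With the replicate number as a block 5 spots were called by intensity at 3 months (Sncg added, adjusted p = 0.0488), beside 52.6% of all tested spots. By percentile 1 was called (Uchl1, adjusted p = 0.0385), beside 30.7%. The block changed no other count of called member spots. The list counts after quantile normalization and without replicate 2 of the 3 month controls, and the interaction of single members, were chosen after seeing the data. Signal over background limits Thy1 most, which has no usable value here.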
